A study of Mus musculus with 8 samples.

Results

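The mitochondrial respiratory chain is assembled from nuclear and mitochondrial gene products, and the nuclear genes of its complexes I to V are described here in mouse spleen natural killer (NK) cells. Members were taken by name among protein-coding genes. They were the *Nduf* subunit genes of complex I, *Sdha* to *Sdhd* of complex II, and the *Uqcr* genes and *Cyc1* of complex III. They were further the *Cox4* to *Cox8* genes of complex IV, the *Atp5* genes of complex V, and *Cycs*, which encodes the carrier cytochrome c. This gave 87 genes among the 54838 in the count files. Of these, 35 were in complex I, 4 in complex II, 9 in complex III, 20 in complex IV and 18 in complex V, with *Cycs* apart. *Ndufa4* and *Ndufa4l2* were counted in complex IV, where the NDUFA4 protein is found. *Cox7a2l*, whose product joins complexes III and IV into supercomplexes, was kept with complex IV. *Atp5s*, which the naming rule also takes, is not a subunit.

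Complexes I and II take electrons from NADH and succinate and pass them to ubiquinone, complex III hands them to cytochrome c, and complex IV reduces oxygen. Complexes I, III and IV pump protons, and complex V, the ATP synthase, uses the resulting gradient to make ATP. NK cells are innate lymphocytes that kill tumour and infected cells, and their cytotoxicity and cytokine output are known to draw on oxidative phosphorylation.

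The teNK group comprised 4 RNA-seq libraries from mice carrying MMTV-PyMT, a transgene that drives the polyoma middle T antigen in the mammary epithelium and gives mammary tumours. The hNK group comprised 4 libraries from wild-type FVB/n mice. In each group, spleen cells positive for CD45 and CD49b and negative for CD3 were sorted and kept 12 to 16 h in medium with cytokines before poly(A) RNA was made into stranded libraries. The labels give neither the cytokines nor the age of the mice nor the strain on which the transgene was kept. They do not say whether replicates came from separate or pooled animals. The p-values therefore measure a spread between libraries that may be technical. Repeat runs in several sequencing lanes are mentioned for teNK alone, so lane layout and group cannot be told apart.

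The teNK libraries held 13111043 to 16209895 reads on genes and the hNK libraries 5202131 to 12419324. The NK markers were abundant in every library, with a summed level of 10 genes at 8223 to 8809 CPM (counts scaled to effective library size) in teNK and 4339 to 4984 CPM in hNK, and 9 of the 10 rose in teNK. Of all 13903 genes tested, 26.4% rose in teNK. Markers of other cells also differed. Of 10 platelet and megakaryocyte genes 9 were tested and all 9 rose, with sums over the list of 173 to 299 CPM in teNK and 18.1 to 42.3 CPM in hNK, where *Gp1bb* was at 0. All 9 B-cell genes rose, with sums of 34.6 to 56.8 CPM in teNK and 0.748 to 6.10 CPM in hNK. Of 9 myeloid genes 3 were tested and 2 rose, *Itgam*, which NK cells also express, and *Lyz2*, with sums of 155 to 178 CPM in teNK and 24.9 to 39.7 CPM in hNK, where *S100a8* and *S100a9* were at 0. The T-cell list summed to 98.3 to 115 CPM in teNK and 93.5 to 119 CPM in hNK, where *Cd8a* and *Cd5* were at 0, and 1 of its 4 tested genes of 8 rose. The 7 erythroid genes summed to 2.65 to 10.5 CPM in teNK and 0 to 0.542 CPM in hNK, and their 1 tested gene rose. The part of these cells in the results below was not tested.

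More respiratory chain genes fell than rose in teNK cells. Of the 79 members that had enough reads to be tested, 31 fell in teNK cells (39.2%, against 25.6% of all 13903 genes tested) and 3 rose (3.80%, against 26.4% of all genes tested), at an adjusted p under 0.05 in edgeR's quasi-likelihood test over all genes, and 45 did not pass. Fold changes are given below as log2 of teNK over hNK ± the SE of that fit, means as CPM ± SD over the 4 libraries of each group, and values per library in the order of replicates 1 to 4. The members that rose were *Cycs*, *Cox5b* and *Cox6c*. In complexes I, II, III and V 0 members rose in edgeR, DESeq2 or limma-voom, and 0 were higher at an unadjusted p under 0.05 in any of these tools. Differences between complexes were not tested. Tested members had more reads than genes at large, with a median of 39.9 CPM in hNK, against 19.3 CPM for all genes tested. Their median SE was smaller, 0.087 against 0.111. The fitted log2 fold change was below 0 for 65 of the 79 members, against 7240 of all 13903 genes tested, with a median of -0.19, against -0.02 over all genes tested. In 28 members every teNK library lay below every hNK library (22.4% of all genes tested did so), and in 1 member, *Cycs*, every teNK library lay above every hNK library (24.1% of all genes tested). *Cox6a2*, which was kept for testing through its hNK reads alone, is counted in the 31 and in the 28. The RNA comes from a whole sorted population, so fewer cells of a type and less RNA per cell cannot be told apart.

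**Figure D1:**
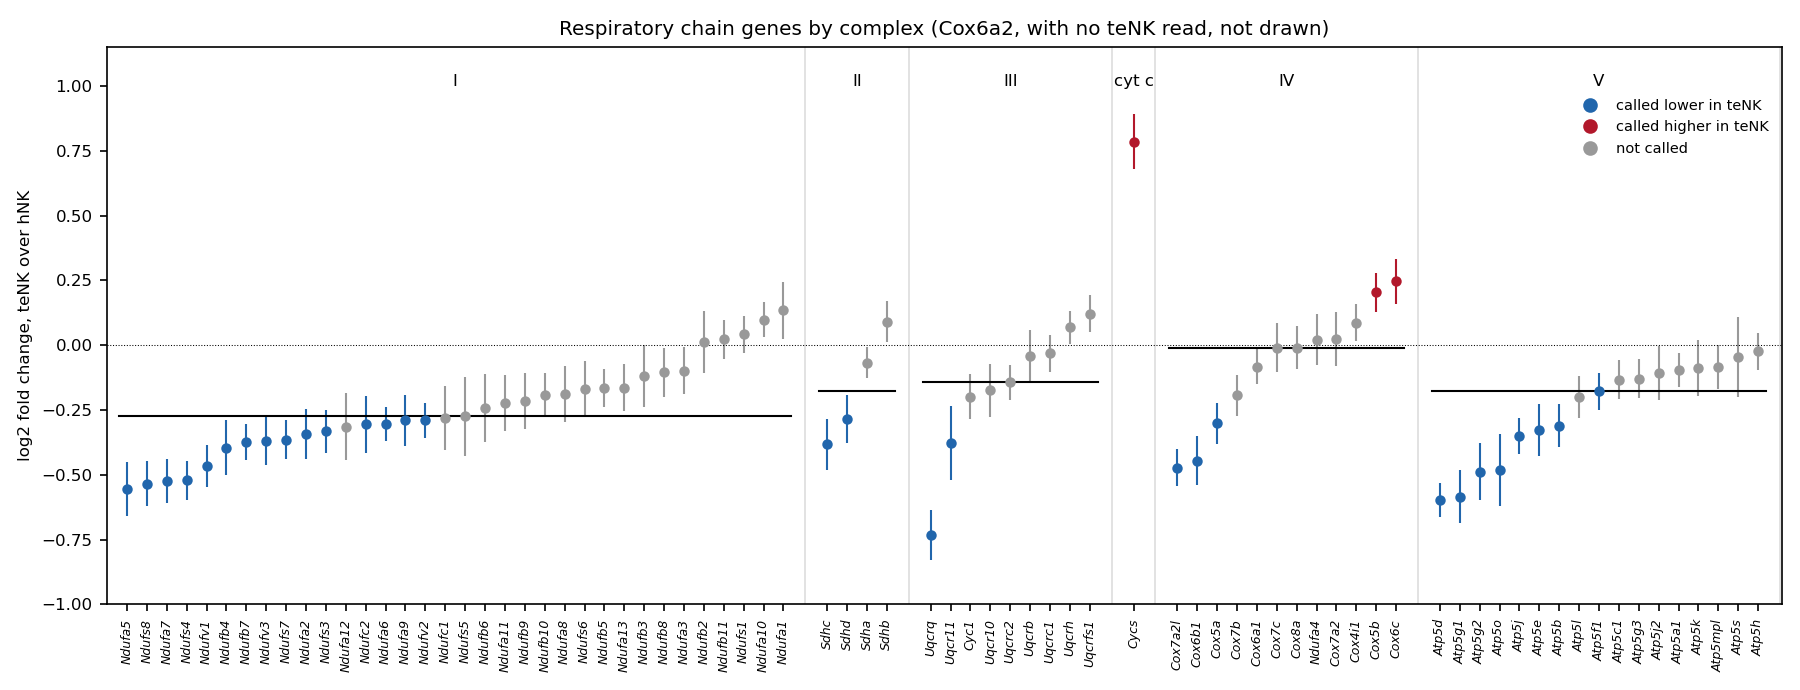
Fitted log2 fold change (teNK over hNK, vertical axis) of tested members, grouped by complex on the horizontal axis, with bars of 1 SE, colours for genes that fell, rose or did not pass, and black lines at the medians of all tested members. All 17 tested members of complex V lie below 0, *Cycs* lies at 0.78, and *Cox6a2*, which had no reads in teNK cells, is not drawn.

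The libraries of a group were not equally placed. teNK replicate 2 had the lowest teNK value in 62 of the 79 tested members, and hNK replicate 1 had the lowest hNK value in 53 of 79. These libraries also had the largest shares of reads outside annotated genes in their groups. The share was 40.5% in teNK replicate 2, against 34.2% to 36.8% in the other teNK libraries. It was 41.2% in hNK replicate 1, against 32.3% to 38.4% in the other hNK libraries. Without both libraries, 36 members fell and 3 rose. With libraries scaled by their total reads alone, the median log2 fold change of all genes tested moved to -0.15, and 54 members fell and 1, *Cycs*, rose. Over all genes that scaling gave 5114 lower and 2709 higher, against 3557 lower and 3665 higher with TMM scaling. Among the 31 members that fell, 24 passed under each of 19 alternative settings. *Cox6a2*, kept for testing through its hNK reads alone, passed under 18 and was not tested under the filter of 10 reads in every library. Those 18 calls restate its absence of teNK reads. The other 6, each lost under at least 1 setting, were *Ndufa2*, *Ndufa9*, *Ndufc2*, *Sdhd*, *Uqcr11* and *Atp5f1*. Transcripts of the cytosolic ribosome also differed, with 72 of 79 genes lower (91.1%, against 25.6% of all genes tested). Their median log2 fold change was -0.54, against -0.02 over all genes tested. They summed to 17598 to 20438 CPM in teNK and 26738 to 31026 CPM in hNK.

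**Figure D2:**
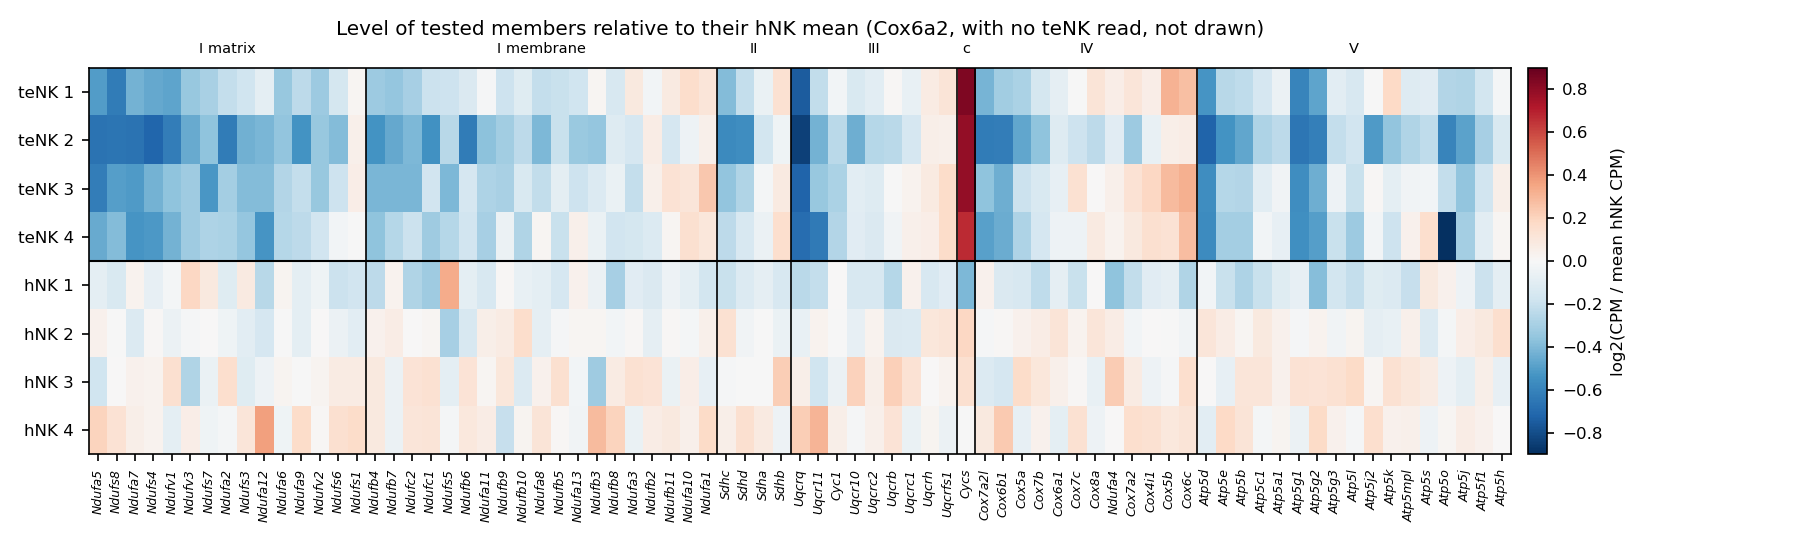
Tested members (columns, grouped by complex) in each of the 8 libraries (rows, teNK above hNK), coloured by the log2 of the CPM over the gene's hNK mean. Most columns of complexes I and V are below the hNK mean in the teNK rows, teNK replicate 2 is the lowest teNK row in 62 of 79 tested members, and *Cycs* runs the other way.

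In complex I, 15 of the 35 genes fell in teNK cells (42.9%, against 25.6% of all genes tested) and none rose, with a median log2 fold change of -0.27 and a range of -0.55 to 0.13. Summed over the 35 genes, complex I transcripts stood at 970.3 ± 42.5 CPM in teNK and 1136 ± 42.3 CPM in hNK, and the 4 teNK sums lay below the 4 hNK sums. The genes that fell were mostly those of the matrix arm, the part that binds NADH and carries the electrons along a chain of iron-sulphur clusters. Of 16 matrix-arm genes 12 fell (75%, against 25.6% of all genes tested), with a median log2 fold change of -0.34. The 16 genes summed to 513 ± 20 CPM in teNK and 632 ± 22.1 CPM in hNK. Of 19 genes of the membrane arm, which pumps the protons, 3 fell (*Ndufb4*, *Ndufb7* and *Ndufc2*). This share, 15.8%, was below the 25.6% of all genes tested. The 19 genes had a median of -0.19 and summed to 457 ± 22.5 CPM in teNK and 503 ± 22.3 CPM in hNK. The arms were set apart after the values were known and their difference was not tested. Matrix-arm genes also had more reads, with a median of 37.8 CPM in hNK against 18.6 CPM for the membrane arm, not corrected for length. Their median SE was smaller, 0.085 against 0.11. The membrane-arm count was 6 without hNK replicate 1, 6 with upper-quartile scaling or with scaling on a restricted gene set, and 13 with library size alone, where the matrix-arm count was 14.

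*Ndufs4* (GRCm38 chr13:114287795-114388258, minus strand), an accessory subunit of the matrix arm whose loss causes Leigh-like encephalopathy in mice, had 39.4, 33.1, 40.4 and 37.9 CPM in teNK, against 51.4, 54.6, 55.4 and 55.3 CPM in hNK. The groups did not overlap, and teNK replicate 2 was the lowest of all 8 (log2 fold change -0.52 ± 0.08, adjusted p = 2.37e-05). *Ndufs8*, which holds iron-sulphur clusters near the quinone end of the chain, had 24.0, 23.6, 26.3 and 28.4 CPM in teNK, against 33.8, 37.1, 37.3 and 40.6 CPM in hNK. Each teNK library was again below each hNK library (log2 fold change -0.54 ± 0.09, adjusted p = 7.06e-05). The accessory subunit gene *Ndufa7* had 21.4, 18.2, 20.2 and 19.9 CPM in teNK, against 29.3, 26.4, 29.5 and 29.8 CPM in hNK, without overlap between groups (log2 fold change -0.52 ± 0.09, adjusted p = 8.66e-05). *Ndufv1*, whose product binds NADH and the flavin, averaged 32.2 ± 2.46 CPM in teNK and 44.5 ± 3.21 CPM in hNK (log2 fold change -0.47 ± 0.08, adjusted p = 0.000127). *Ndufa5*, another accessory gene of this arm, averaged 14.4 ± 0.992 CPM in teNK and 21.3 ± 2.43 CPM in hNK and had the largest fall in complex I (log2 fold change -0.55 ± 0.10, adjusted p = 0.000267).

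Other matrix-arm genes that fell included the iron-sulphur subunit genes *Ndufs7* (-0.36 ± 0.08, adjusted p = 0.000692) and *Ndufv2* (-0.29 ± 0.07, adjusted p = 0.00189) and the core subunit gene *Ndufs3* (-0.33 ± 0.08, adjusted p = 0.00327). So did the accessory genes *Ndufa6* (-0.31 ± 0.07, adjusted p = 0.000884), *Ndufv3* (-0.37 ± 0.09, adjusted p = 0.00347), *Ndufa2* (-0.34 ± 0.10, adjusted p = 0.00686) and *Ndufa9* (-0.29 ± 0.10, adjusted p = 0.0221). *Ndufa9* did not pass without teNK replicate 2, without hNK replicate 4 or without teNK replicate 2 and hNK replicate 1 together. *Ndufa2* did not pass with an offset for gene length. In the membrane arm, *Ndufb7* averaged 39.6 ± 2.36 CPM in teNK and 51.1 ± 2.06 CPM in hNK (log2 fold change -0.37 ± 0.07, adjusted p = 0.000301), and its groups did not overlap. *Ndufb4* averaged 13.9 ± 0.860 CPM in teNK and 18.5 ± 1.89 CPM in hNK (log2 fold change -0.40 ± 0.11, adjusted p = 0.00491). *Ndufc2* averaged 14.9 ± 1.09 CPM in teNK and 18.6 ± 2.26 CPM in hNK, with overlap between groups (log2 fold change -0.31 ± 0.11, adjusted p = 0.0278). It lost its call without any 1 of teNK replicates 1, 2 and 3 or hNK replicates 2, 3 and 4, and with the length offset.

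The highest CPM in complex I belonged to *Ndufs1*, the largest subunit, which carries iron-sulphur clusters of the matrix arm, and it did not pass the test. It had 76.5, 77.7, 78.5 and 75.2 CPM in teNK, against 66.8, 70.7, 79.5 and 84.6 CPM in hNK. The teNK libraries lay within the range of the hNK libraries (log2 fold change 0.04 ± 0.07, adjusted p = 0.661). The accessory genes *Ndufa12* (log2 fold change -0.31 ± 0.13, adjusted p = 0.051) and *Ndufs6* (log2 fold change -0.17 ± 0.11, adjusted p = 0.21) of this arm also did not pass. *Ndufa10* and *Ndufa1* of the membrane arm had the highest fitted values, 0.10 and 0.13 on the log2 scale, and neither passed the test.

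**Figure D3:**
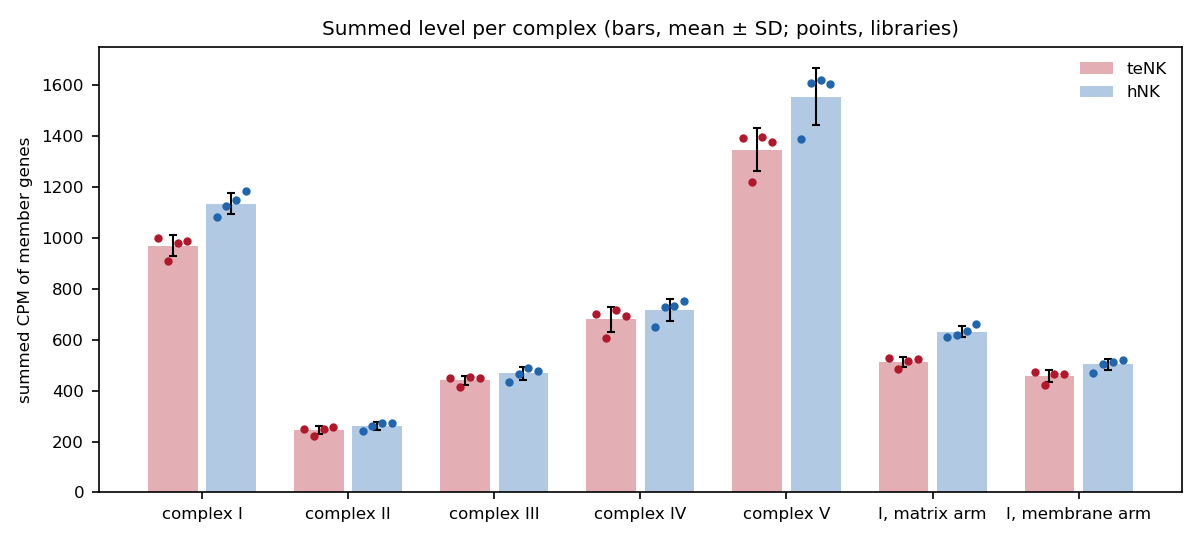
Summed CPM (vertical axis, from 0) of the members of each complex and of the arms of complex I, with points for libraries, bars for group means, SD as error bars, and teNK left of hNK. For complex I the teNK sums (908 to 1001) lie below the hNK sums (1083 to 1184), while for complexes II to V the groups overlap.

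Within complex II, succinate dehydrogenase, the membrane-anchor genes fell and the catalytic genes did not pass the test. *Sdhc*, an anchor subunit that helps hold the haem, had 20.6, 18.2, 21.1 and 22.9 CPM in teNK, against 23.4, 29.7, 26.7 and 28.0 CPM in hNK. The groups did not overlap, although teNK replicate 4 and hNK replicate 1 were close (log2 fold change -0.38 ± 0.10, adjusted p = 0.00405). *Sdhd*, the other anchor, had 34.4, 27.0, 33.1 and 36.1 CPM in teNK, against 36.7, 39.1, 39.7 and 44.1 CPM in hNK. Its groups were separated by a narrow gap (log2 fold change -0.28 ± 0.09, adjusted p = 0.0176). It did not pass without teNK replicate 2 or without hNK replicate 4. *Sdha*, the flavoprotein that oxidises succinate, had 125, 116, 129 and 126 CPM in teNK, against 124, 130.0, 130.5 and 138 CPM in hNK. *Sdhb*, the iron-sulphur subunit, had 70.0, 62.0, 67.3 and 70.7 CPM in teNK, against 57.8, 61.1, 74.4 and 61.8 CPM in hNK. Both catalytic genes overlapped between groups, with log2 fold changes of -0.07 for *Sdha* and 0.09 for *Sdhb* (adjusted p = 0.359 and 0.358). The sum over complex II was 245 ± 14.6 CPM in teNK and 261 ± 14.2 CPM in hNK, with overlap.

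Complex III, the cytochrome bc1 complex, had 2 of 9 genes lower (22.2%, below the 25.6% of all genes tested) and none higher, with a median log2 fold change of -0.14. It held the member with the largest fitted fall after *Cox6a2*. *Uqcrq* (GRCm38 chr11:53427922-53430831, minus strand), a small subunit in contact with cytochrome b, had 22.8, 21.5, 23.2 and 23.8 CPM in teNK, against 32.4, 36.6, 39.7 and 44.6 CPM in hNK. The teNK libraries were tightly grouped and all below the lowest hNK library, while the hNK libraries were spread (log2 fold change -0.73 ± 0.09, adjusted p = 6.96e-06). *Uqcr11*, another small subunit, had 9.81, 8.51, 9.0 and 7.34 CPM in teNK, against 9.81, 11.7, 10.1 and 14.1 CPM in hNK. The highest teNK library and the lowest hNK library nearly coincided (log2 fold change -0.38 ± 0.14, adjusted p = 0.0349). It was called in 12 of 19 alternatives, and the call was lost, among others, without any 1 of teNK replicates 2, 3 and 4 or hNK replicates 2 and 4, and with the length offset.

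The redox subunits of complex III did not pass the test. *Cyc1*, cytochrome c1, had 24.7, 21.2, 20.6 and 20.9 CPM in teNK, against 25.2, 25.1, 24.2 and 26.0 CPM in hNK. teNK replicate 1 lay within the hNK range and the other 3 teNK libraries below it (log2 fold change -0.20 ± 0.09, adjusted p = 0.0672). *Uqcrfs1*, the Rieske iron-sulphur protein, averaged 54.6 ± 2.07 CPM in teNK and 50.1 ± 3.38 CPM in hNK (log2 fold change 0.12 ± 0.07, adjusted p = 0.155). *Uqcrh*, the acidic hinge protein that assists transfer from cytochrome c1 to cytochrome c, was the gene of complex III with the highest CPM and had 109, 107, 109 and 107 CPM in teNK, against 93.4, 111, 103 and 105 CPM in hNK. The teNK libraries lay within the hNK range (log2 fold change 0.07 ± 0.06, adjusted p = 0.382). The core proteins *Uqcrc1* (log2 fold change -0.03 ± 0.07, adjusted p = 0.726) and *Uqcrc2* (log2 fold change -0.14 ± 0.07, adjusted p = 0.0834), with *Uqcrb* and *Uqcr10*, overlapped between groups as well. The count of 2 was 3 without teNK replicate 1 or without hNK replicate 1, 1 without any 1 of teNK replicates 2, 3 and 4 or hNK replicates 2 and 4, and 5 with library size alone. The summed level was 441 ± 17.8 CPM in teNK and 468 ± 24.1 CPM in hNK.

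In complex IV, cytochrome c oxidase, 4 of 13 tested genes fell (*Cox6a2*, *Cox7a2l*, *Cox6b1* and *Cox5a*) and 2 rose (*Cox5b* and *Cox6c*). The share that fell, 30.8%, was near the 25.6% of all genes tested, and the share that rose, 15.4%, was below the 26.4% of all genes tested. The median log2 fold change was -0.01. *Cox6a2* had the lowest fitted value of the complex, so placing it at its limit of detection could not move this median. Of its 20 genes 7 were not tested for lack of reads. The sum over complex IV was 680.0 ± 49.3 CPM in teNK and 717 ± 44.1 CPM in hNK, with overlap. *Cox6a2*, known as the isoform of heart and skeletal muscle, had 0 reads in each teNK library, against 25, 26, 31 and 25 reads in hNK replicates 1 to 4, or 2.08, 2.06, 5.11 and 4.52 CPM. With 3 reads taken as the limit of detection in each teNK library, the level was at least 16.0-fold lower in teNK cells. *Cox6a2* was kept for testing through its hNK reads alone, so its call restates the absence of teNK reads and no p is given. The 4 genes counted as lower in complex IV, and their share, include it. *Cox6a2* (GRCm38 chr7:128205435-128206387, minus strand) overlaps exons of the integrin gene *Itgad* on the other strand. *Itgad* moved the opposite way, with 13.1 ± 1.17 CPM in teNK and 0.713 ± 0.151 CPM in hNK (SD, n = 4 each). The strand setting of the counting is not given in the sources used here. Counted without strand, reads over the shared bases could not be assigned to either gene. The absence of *Cox6a2* reads beside the rise of *Itgad* is therefore uncertain.

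*Cox7a2l* (GRCm38 chr17:83501918-83517330, minus strand) had 70.6, 60.8, 73.1 and 67.2 CPM in teNK, against 96.8, 93.4, 86.4 and 99.9 CPM in hNK. Each teNK library lay well below the lowest hNK library (log2 fold change -0.47 ± 0.07, adjusted p = 3.35e-05). *Cox6b1*, which faces the intermembrane space and joins the monomers of the enzyme, had 32.1, 26.0, 29.4 and 29.3 CPM in teNK, against 36.6, 40.3, 36.0 and 47.0 CPM in hNK. Groups did not overlap, with hNK replicate 4 the highest (log2 fold change -0.45 ± 0.09, adjusted p = 0.00081). *Cox5a*, a matrix-side subunit, averaged 51.7 ± 4.03 CPM in teNK and 63.8 ± 6.01 CPM in hNK (log2 fold change -0.30 ± 0.08, adjusted p = 0.00462). *Cox5b*, a zinc-binding matrix-side subunit, had 64.2, 53.7, 63.1 and 56.8 CPM in teNK, against 49.0, 51.5, 51.3 and 55.3 CPM in hNK. Here teNK replicate 2 lay below the highest hNK library (log2 fold change 0.20 ± 0.07, adjusted p = 0.0308). *Cox6c*, a small membrane subunit, had 91.9, 79.9, 95.4 and 92.6 CPM in teNK, against 63.3, 74.7, 84.8 and 82.7 CPM in hNK. Its groups overlapped too (log2 fold change 0.25 ± 0.09, adjusted p = 0.0256). *Cox5b* was called in 10 of 19 alternatives and *Cox6c* in 13. Neither of these increases passed without teNK replicate 1, without teNK replicate 3, without hNK replicate 1 or without hNK replicate 2, or with library size alone. *Cox5b* was lost also, among others, without hNK replicate 3 and with upper-quartile or restricted scaling, and *Cox6c* also without teNK replicate 4. *Cox4i1*, a core regulatory subunit and the gene of complex IV with the highest CPM over both groups together, had 96.5, 88.4, 105 and 102 CPM in teNK, against 86.5, 92.9, 89.7 and 102 CPM in hNK, with overlap (log2 fold change 0.09 ± 0.07, adjusted p = 0.332).

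For the other families of complex IV isoforms, the general isoform was present and the tissue-restricted one was at or near 0. *Cox4i2*, *Cox7b2*, *Cox8b* and *Cox8c* had no read in any library. *Cox4i2* is the isoform of lung, and *Cox8b* that of heart and muscle. *Cox7a1*, the heart and muscle isoform, reached at most 0.229 CPM in teNK and 0.333 CPM in hNK, and *Ndufa4l2* had reads in hNK replicate 2 alone (0.159 CPM). *Cox6b2*, the testis isoform, had 0.856, 0.698, 0.803 and 0.994 CPM in teNK, against 0.582, 0.397, 0.165 and 0.903 CPM in hNK. The teNK values lay above the level that 3 reads give there (0.190 to 0.241 CPM). The hNK values lay near that level in hNK (0.238 to 0.542 CPM). Of the general isoforms, *Cox6b1* fell, and *Cox6a1*, *Cox7a2*, *Cox8a* and *Ndufa4* did not pass the test. *Cox6a1* had 53, 51.7, 53.4 and 54.3 CPM in teNK, against 53, 60.7, 58.1 and 52.8 CPM in hNK. *Cox7a2* had 49.9, 36.8, 50.8 and 49.2 CPM in teNK, against 39.7, 45.4, 48.7 and 51.3 CPM in hNK. Both genes overlapped between groups. *Cox8a* had 50, 39.3, 46.2 and 48.8 CPM in teNK, against 46.2, 49.8, 44.0 and 44.6 CPM in hNK. *Ndufa4* had 55.9, 50, 55.4 and 55.0 CPM in teNK, against 41.7, 56.4, 62.8 and 53.8 CPM in hNK. So did these, and the fitted log2 fold changes of the 4 genes lay between -0.08 and 0.02.

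**Figure D4:**
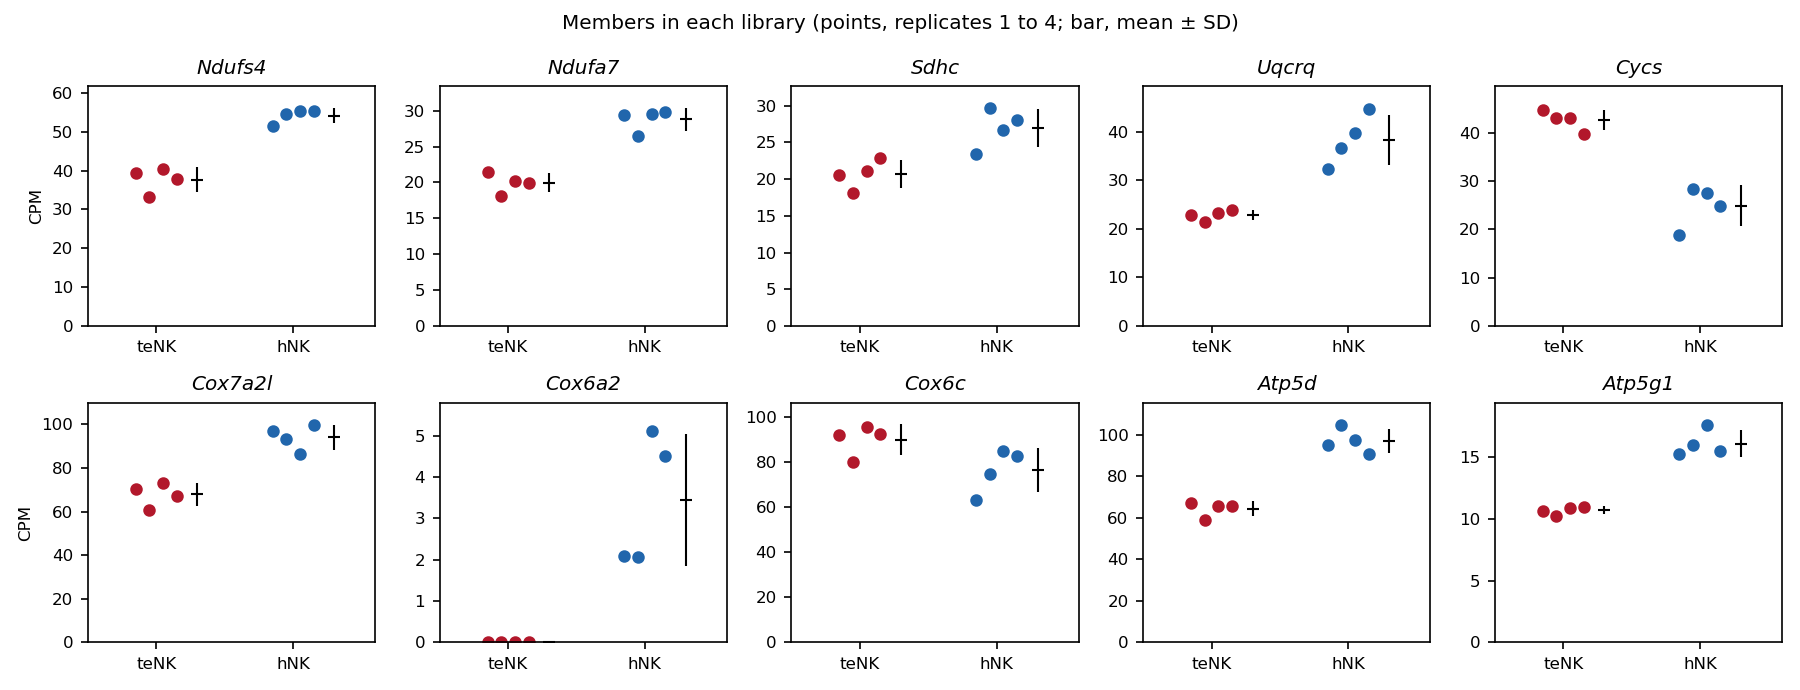
CPM (vertical axis, from 0) of 10 members in each library, with points for replicates 1 to 4, teNK left of hNK, and the group mean ± SD beside them. *Uqcrq*, *Atp5d*, *Cox7a2l* and *Ndufs4* are lower in every teNK library than in every hNK library, and *Cycs* is higher.

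Complex V, the ATP synthase, had 8 of 17 tested genes lower (47.1%, against 25.6% of all genes tested) and none higher, and all 17 fitted values were below 0 (median -0.18, range -0.60 to -0.02). In the catalytic F1 head and its stalk 3 of 5 genes fell (60%, against 25.6% of all genes tested). *Atp5d* (GRCm38 chr10:80138632-80145818, plus strand), the delta subunit of the central stalk, had 67.1, 58.9, 65.7 and 65.5 CPM in teNK, against 95.2, 105, 97.3 and 90.9 CPM in hNK. The groups were far apart relative to their spread (log2 fold change -0.60 ± 0.07, adjusted p = 1.29e-06). *Atp5b*, the catalytic beta subunit, averaged 251 ± 17.7 CPM in teNK and 312 ± 38.1 CPM in hNK with overlapping groups (log2 fold change -0.31 ± 0.08, adjusted p = 0.00541). *Atp5e*, the epsilon subunit, averaged 22.8 ± 2.04 CPM in teNK and 28.8 ± 3.25 CPM in hNK (log2 fold change -0.33 ± 0.10, adjusted p = 0.0109). *Atp5a1*, the alpha subunit and the member with the highest CPM, had 336, 296, 341 and 331 CPM in teNK, against 323, 358, 357 and 355 CPM in hNK. Only hNK replicate 1 lay within the teNK range (log2 fold change -0.10 ± 0.07, adjusted p = 0.239). *Atp5c1*, the gamma subunit that turns inside the head, also did not pass (log2 fold change -0.13 ± 0.08, adjusted p = 0.151).

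In the peripheral stalk, which holds the head still, 3 of 4 tested genes fell (75%, against 25.6% of all genes tested). In the small membrane subunits 0 of 4 fell. The parts of complex V were set apart after the values were known, and differences between them were not tested. *Atp5j*, coupling factor 6, had 51.1, 44.2, 48.1 and 49.9 CPM in teNK, against 59.6, 64.2, 57.9 and 64.5 CPM in hNK. Each teNK library was below each hNK library (log2 fold change -0.35 ± 0.07, adjusted p = 0.000534). *Atp5o*, the subunit that confers sensitivity to oligomycin, averaged 13.8 ± 3.21 CPM in teNK and 19.2 ± 0.507 CPM in hNK (log2 fold change -0.48 ± 0.14, adjusted p = 0.00842). A second gene identifier with this symbol overlaps it on the same strand and had no reads. Reads over the shared exons may have been counted for neither. *Atp5f1*, subunit b, averaged 136 ± 7.87 CPM in teNK and 154 ± 13.3 CPM in hNK with overlap (log2 fold change -0.18 ± 0.07, adjusted p = 0.0444). It was called in 7 of 19 alternatives. The call was lost without any 1 of teNK replicates 1, 2 and 3 or hNK replicates 2, 3 and 4, and also in DESeq2, in limma-voom, with DESeq2's size factors and with a looser or stricter filter. *Atp5h*, subunit d, averaged 80.3 ± 4.57 CPM in teNK and 81.4 ± 6.44 CPM in hNK (log2 fold change -0.02 ± 0.07, adjusted p = 0.797). The membrane genes *Atp5l*, *Atp5j2*, *Atp5k* and *Atp5mpl* had fitted log2 fold changes of -0.20 to -0.08 and did not pass, and 1 of them had an unadjusted p under 0.05 in edgeR, as in DESeq2 and in limma-voom. Complex V summed to 1346 ± 84.2 CPM in teNK and 1556 ± 111 CPM in hNK, and the groups overlapped by hNK replicate 1. Leaving that library out gave 11 genes lower, leaving any other library out 7 or 8, and library size alone 13.

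Subunit c, which forms the rotating ring of complex V, is encoded by 3 genes whose mature products are identical, and their proportions shifted between groups. *Atp5g1* had 10.7, 10.3, 10.9 and 11 CPM in teNK, against 15.3, 16.0, 17.6 and 15.5 CPM in hNK. *Atp5g2* had 21, 19.0, 21.5 and 20.7 CPM in teNK, against 22.4, 29.9, 31.8 and 32.9 CPM in hNK. *Atp5g3* had 53.4, 49.1, 55.2 and 49.7 CPM in teNK, against 50.9, 55.9, 62.8 and 58.5 CPM in hNK. The groups overlapped in *Atp5g3* and did not in the others, although hNK replicate 1 lay close to the teNK libraries in *Atp5g2*. *Atp5g1* (log2 fold change -0.59 ± 0.10, adjusted p = 0.000163) and *Atp5g2* (log2 fold change -0.49 ± 0.11, adjusted p = 0.00143) fell, whereas *Atp5g3* did not pass (log2 fold change -0.13 ± 0.08, adjusted p = 0.163). Of the 3 genes' summed CPM, *Atp5g3* made up 62.3 ± 0.891% in teNK and 55.8 ± 1.25% in hNK (SD, n = 4 each). *Atp5g2* made up 24.7 ± 0.495% in teNK and 28.4 ± 2.33% in hNK, and *Atp5g1* 12.9 ± 0.503% in teNK and 15.8 ± 1.13% in hNK. A 2-sided exact permutation test gave p = 0.0286 for *Atp5g3* and *Atp5g1*, the smallest p that 4 against 4 libraries allow, and 0.0571 for *Atp5g2*. Annotated transcripts of 7 other genes shared a near-identical stretch with the *Atp5g1* transcript, and those of 2 other genes with the *Atp5g2* transcript. Such stretches, which need not be copies of the whole gene, can take or lend reads.

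The same test was made for 5 shares in all, with p adjusted over the 5 at 0.0357 for all but *Atp5g2* (0.0571). The shares are made of genes whose own results are given in this report, so these p-values are not separate support. The *Atp5g* shares add up to a whole, so the 5 tests are not independent. *Cox7a2l* made up 59.4 ± 1.99% in teNK and 67.1 ± 2.90% in hNK of *Cox7a2* and *Cox7a2l* together. *Cycs* made up 66.1 ± 1.45% in teNK and 49.5 ± 4.88% in hNK of *Cycs* and *Cyc1*, the acceptor and donor of the electrons that leave complex III. In both shares no teNK library lay within the hNK range (exact permutation p = 0.0286 each). *Cox6a2* made up 0% in every teNK library and 5.76 ± 2.58% in hNK of *Cox6a1* and *Cox6a2*, a share given without a test. These shares are of CPM, not of molecules, since genes differ in length.

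**Figure D5:**
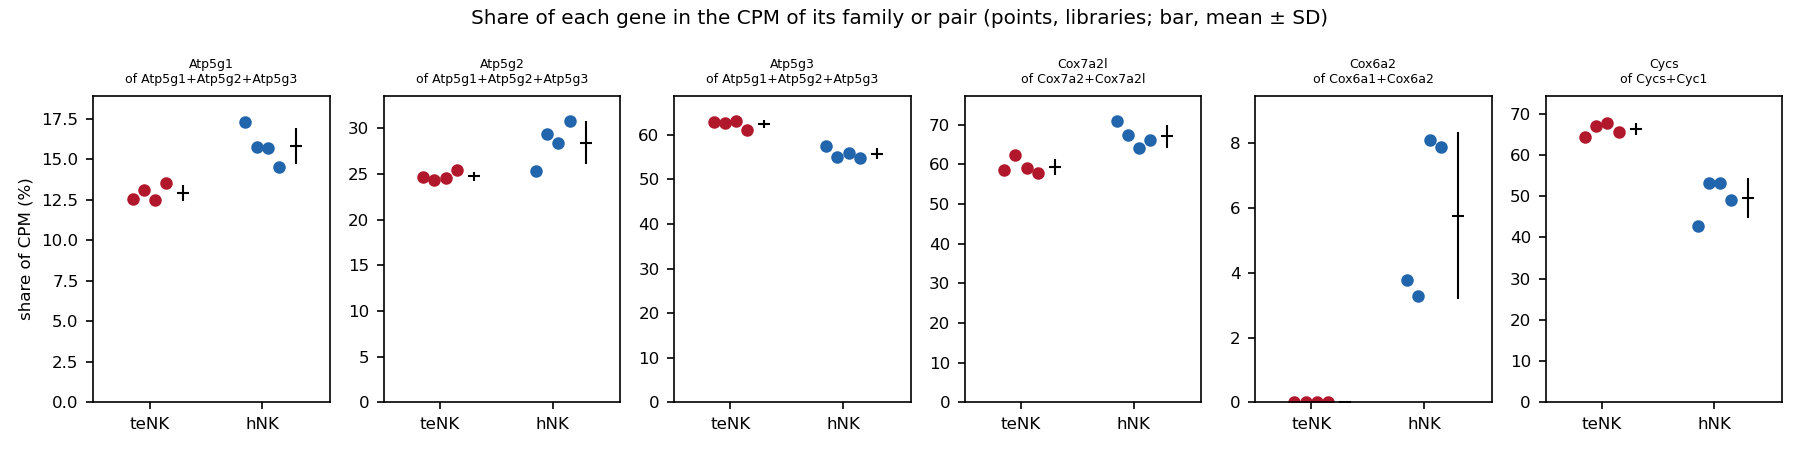
Percent of the summed CPM of its gene family or pair taken by each gene, per library (points, teNK left of hNK), with the group mean ± SD beside them. The share of *Atp5g3* is higher in every teNK library (61.0% to 63.0%) than in every hNK library (54.7% to 57.5%).

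*Cycs* (GRCm38 chr6:50562563-50566538, minus strand), cytochrome c, was the 1 member higher in every teNK library than in every hNK library. It had 44.7, 43.2, 43.1 and 39.7 CPM in teNK, against 18.9, 28.4, 27.5 and 24.9 CPM in hNK. The lowest teNK library exceeded the highest hNK library, and hNK replicate 1 was the lowest of all. The fitted level was 1.72-fold higher in teNK cells (log2 fold change 0.78 ± 0.11, adjusted p = 1.24e-05). The call was made under each of the 19 alternatives. Besides carrying electrons to complex IV, cytochrome c is released from mitochondria in apoptosis. Annotated transcripts of 15 other genes, 3 of them pseudogenes, shared a near-identical stretch with the *Cycs* transcript. Such a stretch need not be a copy of the whole gene. How reads that map to several places were treated cannot be seen from the counts.

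In the rat, the cytochrome c promoter is known to hold sites for the factors NRF-1 and CREB. The bases 250 to 51 before the RefSeq start of mouse *Cycs* are therefore shown. Those of *Cox6a1*, which did not pass the test, and *Ndufa6*, which fell, stand beside them for their match to the same NRF-1 motif. The stretches are from GRCm38.p6, 5′ to 3′ on the strand of the gene, which is the minus strand for all 3. Capitals mark matches, on either strand, to the letters GCGCATGC (NRF-1), TGACGTCA (CRE, bound by CREB) and GGGCGG (Sp1).
Cycs, chr6:50566620-50566819: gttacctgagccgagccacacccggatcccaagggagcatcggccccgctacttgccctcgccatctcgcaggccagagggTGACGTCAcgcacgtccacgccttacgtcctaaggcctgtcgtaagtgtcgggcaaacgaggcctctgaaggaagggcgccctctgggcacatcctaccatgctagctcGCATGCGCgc
Cox6a1, chr5:115349009-115349208: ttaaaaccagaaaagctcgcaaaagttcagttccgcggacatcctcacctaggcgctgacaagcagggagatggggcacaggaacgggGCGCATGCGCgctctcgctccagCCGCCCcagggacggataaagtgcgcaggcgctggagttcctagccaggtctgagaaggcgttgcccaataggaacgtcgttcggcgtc
Ndufa6, chr15:82354342-82354541: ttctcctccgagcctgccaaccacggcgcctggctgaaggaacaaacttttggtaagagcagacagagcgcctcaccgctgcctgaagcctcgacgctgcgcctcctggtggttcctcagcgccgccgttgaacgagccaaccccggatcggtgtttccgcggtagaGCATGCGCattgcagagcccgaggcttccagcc

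*Cycs* had 1 match to the NRF-1 letters and 1 to the CRE letters, *Ndufa6* 1 to the NRF-1 letters. *Cox6a1* had 2 overlapping matches to the NRF-1 letters, which nearly mirror themselves, and 1 to the Sp1 letters. RefSeq windows of 300 bases (250 before to 50 after the start) were matched for 67 of the 86 member symbols, 72 windows in all. The NRF-1 letters were in 15.3% of the member windows, against 5.46% of the windows of genes tested and 2.71% of all 32851 windows. The YY1 letters AAGATGGC were in 12.5% of member windows, against 4.74% of those of genes tested and 2.75% of all, and the CRE letters in 6.94%, against 3.22% and 1.79%. The ETS letters CCGGAAG were in 22.2% of member windows, against 19.0% and 8.86%, and the Sp1 letters in 38.9%, against 62.2% and 35.7%. Among members that fell, 10% of 30 windows held the NRF-1 letters and 0 the CRE letters, against 19.4% and 11.1% of 36 windows of members that did not pass. These are descriptions of letters in a window.

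Members differed widely in level. Per kilobase of the main transcript, averaged over the groups, *Uqcrh* (193 CPM per kb), *Atp5b* (147), *Atp5c1* (138), *Atp5a1* (136) and *Cox4i1* (125) were the highest. *Ndufb2* (2.24 CPM per kb), *Cox6a2* (2.53), *Atp5g1* (2.85), *Atp5s* (3.57) and *Sdhc* (7.51) were the lowest of those tested. The main transcript was taken as the longest of a gene's principal coding transcripts. It had 4371 bases in *Ndufb2* and 4715 in *Atp5g1*, against a median of 865 over tested members. The low rank of these genes depends on that choice. Tested members were shorter than other genes, with a median transcript length of 865 bases, against 2999.5 for all genes tested. Members were also compared with other protein-coding genes without ribosomal proteins, in bins of exonic length up to 1000, 2000, 4000 and 8000 bases. From short to long, the median log2 fold change was -0.17, -0.25, -0.14 and -0.18 in members. It was higher in the other genes of each bin, at -0.02, -0.11, -0.04 and 0.02. In the shortest bin the share that fell was 27.8% in both. In the longer bins it was 43.3%, 42.9% and 44.4% of members, against 28.1%, 27.9% and 23.9% of the other genes. The 1 member over 8000 bases was at 0.04. For 26 members, annotated transcripts of other genes shared a stretch of at least 100 bases at 95% identity or more. Exons of another gene overlapped 26 members on the other strand and 6 on the same strand.

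Of the 13 subunits that mitochondrial DNA encodes, 0 fell and 5 rose in edgeR (38.5%, against 26.4% of all genes tested), and the median log2 fold change was 0.14. DESeq2 gave 0 lower and 5 higher and limma-voom 0 lower and 4 higher, and 0 were lower at an unadjusted p under 0.05 in any of the 3 tools. The difference from the nuclear genes was not tested. Without teNK replicate 4, 3 rose, and with library size alone 3 rose around a median of 0.01. The filter of 10 reads in every library left 11 of the 13, and 5 rose around a median of 0.19. *mt-Nd6*, the complex I gene of the light strand, averaged 164 ± 12.7 CPM in teNK and 98.1 ± 18.8 CPM in hNK (log2 fold change 0.74 ± 0.11, adjusted p = 2.8e-05). *mt-Nd2* averaged 3805 ± 386 CPM in teNK and 2774 ± 393 CPM in hNK (log2 fold change 0.46 ± 0.11, adjusted p = 0.00177). Neither overlapped between groups. *mt-Nd1* (log2 fold change 0.33 ± 0.11, adjusted p = 0.0204), *mt-Atp6* (log2 fold change 0.78 ± 0.23, adjusted p = 0.0106) and *mt-Co3* (log2 fold change 0.44 ± 0.18, adjusted p = 0.0445) rose with overlap. *mt-Cytb*, the mitochondrial subunit of complex III, averaged 3186 ± 158 CPM in teNK and 3264 ± 468 CPM in hNK and did not pass (log2 fold change -0.03 ± 0.10, adjusted p = 0.791). The list summed to 26852 to 30511 CPM in teNK and 20400 to 28729 CPM in hNK, with hNK replicate 1 the lowest. Read counts differed widely between these genes. *mt-Co1* averaged 10947 ± 449.8 CPM in teNK and 9934 ± 1398 CPM in hNK. *mt-Co3* averaged 11.7 ± 2.16 CPM in teNK and 8.37 ± 2.15 CPM in hNK. The handling of reads that map to several places is not known, and its part in these levels was not tested.

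Of 50 tested assembly factors of the chain 17 fell (34%, against 25.6% of all genes tested) and 5 rose (10%, against 26.4% of all genes tested), with a median log2 fold change of -0.16. The 5 became 1 with library size alone and without teNK replicate 3 or hNK replicate 2. They became 2 with upper-quartile or restricted scaling and without teNK replicate 1 or hNK replicate 1. They became 3 in DESeq2, without a filter beyond 1 read, with the length offset, without teNK replicate 2 or hNK replicate 3, and without teNK replicate 2 and hNK replicate 1 together. *Cox17*, the copper carrier to complex IV, averaged 15.5 ± 1.41 CPM in teNK and 26.3 ± 2.1 CPM in hNK (log2 fold change -0.75 ± 0.10, adjusted p = 7.27e-06). *Uqcc3*, an assembly factor of complex III, averaged 5.25 ± 0.791 CPM in teNK and 10.3 ± 1.41 CPM in hNK (log2 fold change -0.97 ± 0.15, adjusted p = 5.65e-05). *Cmc2* rose (log2 fold change 0.70 ± 0.12, adjusted p = 0.000165). Of 6 further tested subunits and partners, of which *Atp5mpl* is also a member, 1 fell and 1 rose. Each is 16.7%, against 25.6% of all genes tested that fell and 26.4% that rose. *Ndufab1*, the acyl carrier protein in complex I, fell (log2 fold change -0.56 ± 0.09, adjusted p = 5.81e-05) and *Higd1a*, a partner of complex IV, rose (log2 fold change 0.66 ± 0.08, adjusted p = 1.8e-06). Of 20 genes of the citric acid cycle and pyruvate dehydrogenase, which supply the NADH and succinate, 6 fell (30.0%, near the 25.6% of all genes tested) and 3 rose (15%, against 26.4% of all genes tested), with a median log2 fold change of -0.06. The 6 became 2 without any 1 of teNK replicate 1, teNK replicate 2 and hNK replicate 2. They became 3 in DESeq2, without a filter beyond 1 read and without teNK replicate 2 and hNK replicate 1 together, and 10 with library size alone. *Mdh2* fell (log2 fold change -0.25 ± 0.06, adjusted p = 0.00331), and *Sucla2* (log2 fold change 0.32 ± 0.06, adjusted p = 0.000442) and *Idh2* (log2 fold change 0.68 ± 0.15, adjusted p = 0.00152) rose.

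Among 19 tested regulators of mitochondrial biogenesis 7 fell (36.8%, against 25.6% of all genes tested) and 4 rose (21.1%, against 26.4% of all genes tested), with a median log2 fold change of -0.13. With library size alone 10 fell and 2 rose. *Ppargc1a*, which encodes the coactivator PGC-1alpha that raises transcription of respiratory genes, had 7.04, 9.33, 5.38 and 7.87 CPM in teNK, against 37.3, 35.8, 31.8 and 29.6 CPM in hNK. Every teNK library was far below every hNK library (log2 fold change -2.19 ± 0.13, adjusted p = 9.39e-10). Its relative *Pprc1* averaged 27.6 ± 3.01 CPM in teNK and 51.6 ± 6.25 CPM in hNK and fell (log2 fold change -0.89 ± 0.10, adjusted p = 1.12e-06). *Polg2*, the accessory subunit of the mitochondrial DNA polymerase, had 24.0, 27.3, 22.3 and 21.2 CPM in teNK, against 11.4, 9.29, 8.91 and 12.5 CPM in hNK. It rose without overlap (log2 fold change 1.18 ± 0.12, adjusted p = 5.28e-07).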

How the data were processed

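The 8 deposited files hold raw read counts per gene, whole numbers that the authors made with HISAT2 2.1.0, SAMtools and HTSeq against GRCm38, per the submitters' processing notes; the strand setting, the annotation release and the handling of multi-mapping reads are not given in the sources used here. Of 54838 genes, 27313 had a read. The 5 summary lines stayed out of library sizes: reads without a feature made up 32.3% to 41.2% and ambiguous reads 1.52% to 2.07%. Genes kept by filterByExpr (13903) were tested with edgeR 4.0.16 (R 4.3.3): TMM scaling, glmQLFit and glmQLFTest on group alone over all 8 libraries, with Benjamini-Hochberg adjustment over all 13903 genes and a threshold of 0.05. The biological coefficient of variation was 8.42%. The fit was tested on simulated counts with known fold changes. CPM values use the scaled library sizes, and 3 reads correspond to 0.190 to 0.241 CPM in teNK and 0.238 to 0.542 CPM in hNK. The SD and SE include the spread between libraries, while the limit of detection covers counting error only.

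Gene positions, lengths and names are from GENCODE M21 (GRCm38), and promoter windows from RefSeq (GRCm38.p6). Values per library were given for the 3 members of each complex with the smallest adjusted p, the member with the highest CPM, members that rose and isoform pairs; of other lists the 3 genes with the smallest adjusted p were eligible, and all mitochondrially encoded genes. Members and lists were chosen with earlier results of these data known, and the arms of complex I and the parts of complex V were set after their values were seen. Replicates of a group differed by more than sampling noise (chi-square per degree of freedom 3.51 to 11.3). Alternatives were DESeq2 1.42.0, limma 3.58.1 (voom), other scalings, other filters, a replicate block, a gene length offset and each library left out; leaving out teNK replicate 2 and hNK replicate 1 together was added after seeing the data. Values of 1 member gene are not reported here; counts, sums and medians include it, and the figures of single genes do not draw it.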

Additional observations from a re-analysis of the deposited data

Results flagged for a closer look

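In 6 of 62 groups of 4 libraries looked at for the genes with values per library, 1 library stood apart by Dixon's gap over range; chance flags about 1 in 20 groups. teNK replicate 2 was low for *Cox7a2* (36.8 CPM, with the other teNK libraries at 49.2 to 50.8 CPM) and for *Ndufa4* (50 CPM, with the others at 55.0 to 55.9 CPM). teNK replicate 1 was high for *Cyc1* (24.7 CPM, with the other teNK libraries at 20.6 to 21.2 CPM). hNK replicate 1 was low for *Atp5a1* (323 CPM, with the other hNK libraries at 355 to 358 CPM), and hNK replicate 2 was low for *Ndufa7* (26.4 CPM, with the others at 29.3 to 29.8 CPM). hNK replicate 2 was also the 1 library with reads of *Ndufa4l2* (0.159 CPM, with the others at 0).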

How the results depend on the processing

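With library size alone, 54 members fell and 1 rose; the medians of complexes I to V moved to -0.40, -0.31, -0.27, -0.14 and -0.31, and the counts that fell to 27 in complex I, 5 in complex III and 13 in complex V. That scaling also turned the sign of genes that had not passed, *Cox4i1* (-0.045), *Cox7a2* (-0.11), *Ndufa4* (-0.11), *Ndufs1* (-0.089), *Sdhb* (-0.040) and *Uqcrh* (-0.061). With upper-quartile scaling 4 genes of complex III fell, and *Cox7a2* and *Ndufa4* turned to -0.012. With scaling on protein-coding genes without mitochondrial and ribosomal protein genes 4 fell, and they turned to -0.0039 and -0.0043. A gene length offset gave medians of -0.20 in complex I and -0.050 in complex III, where 1 gene fell, and turned *Cox6a1* (0.034), *Cox8a* (0.13) and *Ndufs1* (-0.023); a filter of 10 reads in every library turned *Cox8a* (0.0035). Without teNK replicate 2 and hNK replicate 1 together, *Cox8a* (0.057), *Ndufa4* (-0.055) and *Ndufs1* (-0.017) turned.

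Leaving out 1 library at a time gave 26 to 40 members lower and 1 to 3 higher. Medians ranged from -0.29 to -0.20 in complex I, -0.21 to -0.12 in II, -0.19 to -0.09 in III, -0.09 to 0.05 in IV and -0.24 to -0.14 in V, and counts that fell from 13 to 19, 1 to 2, 1 to 3, 4 to 5 and 7 to 11. Single genes that turned ranged from -0.049 to 0.13 (*Cox7a2*), -0.047 to 0.064 (*Cox8a*), -0.093 to 0.10 (*Ndufa4*) and -0.014 to 0.096 (*Ndufs1*). The causes were not tested. The deviations of same-numbered libraries had correlations of -0.11 to 0.15, which show no pairing by number and cannot exclude one. With a replicate block 29 members fell and 2 rose, 1 of complex III among those that fell. *Cox5b*, *Uqcr11* and *Atp5f1* did not pass with that block, while 1 assembly factor rose and 3 genes of the citric acid cycle list fell. The hNK libraries with 5202131 and 5800098 reads limit the precision of low genes.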
